A study of Mus musculus with 10 samples.

Results

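Lung libraries whose hemoglobin transcripts made up less than 0.6% of all counts were compared with those above 0.6%, over every other gene. The libraries were chosen by that measured share. It was computed in each library from the genes whose symbols start with Hba- or Hbb-, and 3 of the 10 lung libraries fell below 0.6% and 7 above it. They are called hemoglobin-low and hemoglobin-high below. All 10 came from wild-type (WT) mice whose lungs had been injured with bleomycin, a drug that breaks DNA and leaves the lung fibrotic, and every mouse had also received bone marrow cells. Recipients of marrow cells with bright aldehyde dehydrogenase activity (ALDHbr) gave 5 libraries, and recipients of cells with dim activity (ALDHdim) gave the other 5. The hemoglobin-low libraries were ALDHbr 5, ALDHdim 4 and ALDHdim 5, so each transfer group held libraries of both classes. The labels give no age, sex, bleomycin dose or time of sampling, do not say whether lungs were flushed of blood, and do not say that each library came from a separate mouse. P-values therefore measure the spread between these samples, which may be technical. No lung without bleomycin or without transferred cells was analysed here.

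Hemoglobin, the oxygen carrier of red cells, is a tetramer of alpha chains and beta chains that each hold a heme. Mature red cells have lost their nucleus, but young ones (reticulocytes) still carry a great deal of globin RNA, so blood held in the vessels of a lung sample is a usual source of such transcripts. Globin transcripts have also been described in alveolar type 2 cells. Blood brings platelets, neutrophils, monocytes and lymphocytes with the red cells, and these have transcripts of their own.

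The classes were set by 4 genes. Hbb-bs and Hbb-bt encode adult beta chains on chromosome 7, and Hba-a1 and Hba-a2 encode the adult alpha chain on chromosome 11. Another gene under the rule, Hbb-bh1, an embryonic beta-like chain, had 1 count in all. The 100 bases before the RefSeq start of each adult gene (GRCm38.p6) are shown because the transcripts of these genes defined the comparison and moved together from library to library. Capitals mark usual elements of globin promoters on either strand: the CCAAT box, the CACCC box, and TATAA. Hbb-bs lies on the minus strand (chr7:103827929-103828028), as does Hbb-bt (chr7:103813924-103814023). Hba-a1 (chr11:32283572-32283671) and Hba-a2 (chr11:32296392-32296491) lie on the plus strand.
Hbb-bs: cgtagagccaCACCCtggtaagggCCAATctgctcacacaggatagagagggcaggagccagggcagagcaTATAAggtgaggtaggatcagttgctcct
Hbb-bt: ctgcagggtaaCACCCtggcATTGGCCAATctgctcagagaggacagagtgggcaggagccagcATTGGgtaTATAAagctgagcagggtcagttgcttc
Hba-a1: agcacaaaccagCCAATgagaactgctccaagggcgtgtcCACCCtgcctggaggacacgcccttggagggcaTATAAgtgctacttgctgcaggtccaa
Hba-a2: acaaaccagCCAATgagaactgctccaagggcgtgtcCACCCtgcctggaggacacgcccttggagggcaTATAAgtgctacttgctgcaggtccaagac
All 4 windows hold each of the 3 motifs. None holds GATA with A or T before it and A or G after it, which was also searched on both strands and which 10.4% of mouse promoter windows of that length hold. Of 32851 mouse promoter windows of the same length, 18.9% hold CCAAT, 27.2% hold CACCC and 10.2% hold TATAA. The windows of Hba-a1 and Hba-a2 are identical over the 97 bases they share. These alpha genes are near-identical copies, so the authors' counting may have divided their reads, while their sum is unaffected by that division.

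Hemoglobin took 0.162% of counts in ALDHdim 4, 0.201% in ALDHdim 5 and 0.436% in ALDHbr 5. The hemoglobin-high libraries began at 0.777% (ALDHbr 1) and went through 1.10% (ALDHbr 2), 1.13% (ALDHdim 1), 1.26% (ALDHdim 2), 1.29% (ALDHbr 3) and 1.35% (ALDHdim 3) to 1.37% (ALDHbr 4). The libraries on either side of the 0.6% line were thus ALDHbr 5 and ALDHbr 1. Hbb-bs alone supplied 72.7 to 77.1% of the hemoglobin counts of each library, Hbb-bt 9.54 to 12.3%, Hba-a1 7.28 to 9.84% and Hba-a2 4.96 to 7.19%. The 4 genes kept nearly the same proportions at low and high shares, as the plot of hemoglobin by library shows. These shares chose the classes and are given as a description.

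**Figure D1:**
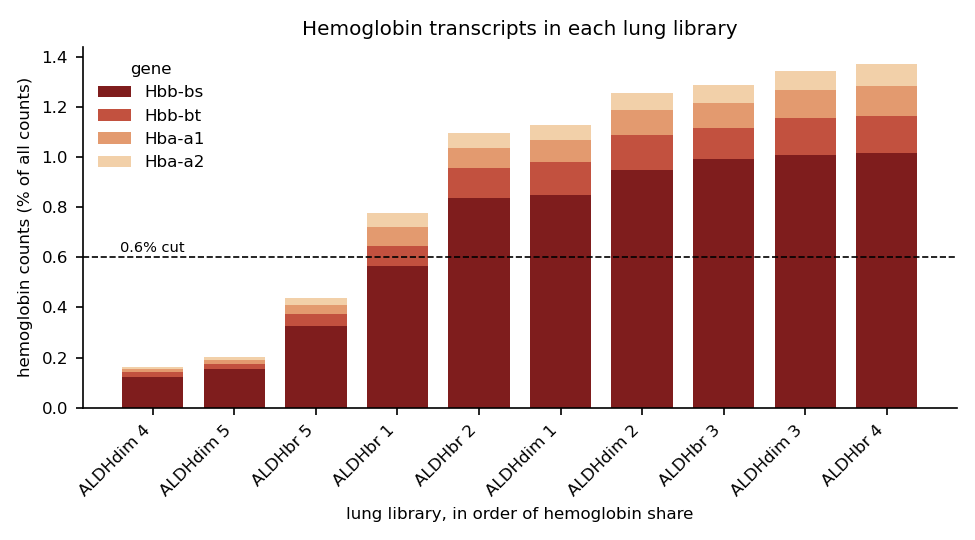
Percent of all counts (y axis) in 4 hemoglobin genes, stacked, for each of the 10 lung libraries (x axis) in order of their total; the dashed line is the 0.6% limit. The 3 libraries below the line reach 0.162 to 0.436% and the 7 above it 0.777 to 1.37%.

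Libraries held 588063 to 2002947 counts. Total counts (exact two-sided permutation p = 0.625, adjusted p = 0.975 over 5 measures), the number of genes detected at equal depth (p = 0.975, adjusted p = 0.975) and the share of immunoglobulin counts (p = 0.867, adjusted p = 0.975) overlapped between classes. Mitochondrial transcripts took 7.97 to 8.56% of counts in the hemoglobin-low and 5.06 to 7.70% in the hemoglobin-high libraries without overlap (exact permutation p = 0.0333, adjusted p = 0.167; the smallest p that 120 assignments allow is 0.00833). A list of 13 genes of the mitochondrial genome did not separate in this way. Its summed levels were 32265.2 to 37521.4 CPM in hemoglobin-low and 22748.9 to 42056.5 CPM in hemoglobin-high libraries, with overlap. Of its 10 tested genes, 6 were higher and 4 lower in hemoglobin-high libraries, with a median log2 fold change of 0.029. Which mitochondrial transcripts made up the difference in share was not tested. ALDHbr 3 and ALDHbr 5, 1 of each class, stood apart from the rest in detecting 22812 and 21540 genes at equal depth, against 16199 to 18063 in the others. They also stood apart in Rag1, a gene of developing lymphocytes, at 16.7 and 16.8 CPM against at most 1.27 CPM elsewhere. The part of these features in the results below was not tested, beyond the values given without those libraries.

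With edgeR's quasi-likelihood test on all 10 libraries, 0 of 11538 genes (0%) passed an adjusted p of 0.05, and the smallest adjusted p was 0.114. Those with an unadjusted p under 0.05 numbered 1289 (11.2%), 658 of them higher in hemoglobin-high libraries (5.7%) and 631 lower (5.47%). Other tools made calls from the same counts: DESeq2 called 145 genes (90 higher, 55 lower) and limma-voom with sample weights called 192 (83 higher, 109 lower), of which 118 were called by both. The count also turned on single libraries, with 174 calls by edgeR without ALDHbr 4, 31 without ALDHbr 3, 1 without ALDHbr 5 and 11 without both ALDHbr 3 and ALDHbr 5. All levels below are CPM, counts scaled to a common library size over tested genes, and all differences are log2 fold changes, hemoglobin-high minus hemoglobin-low, with their standard errors (SE). Because reads come from the 3' end of the RNA, levels do not scale with transcript length. A gene's levels did not overlap between classes in 201 cases with higher levels in every hemoglobin-high library (1.74% of genes tested) and in 233 cases with lower levels (2.02%). Estimates were above 0 for 49.7% of all genes tested and below 0 for 50.3%, which is the background for the counts of higher and lower estimates in gene lists given below.

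The ALDHdim libraries, which held 2 of the 3 hemoglobin-low samples and the lowest hemoglobin shares, gave more calls when tested alone. Of 11440 genes, 441 passed an adjusted p of 0.05 (3.85%), of which 236 rose (2.06%) and 205 fell (1.79%) with hemoglobin. That comparison is of 3 libraries with 2, and it rested on the latter: without ALDHdim 4 there were 36 calls, and without ALDHdim 5 there were 0, the lone remaining library being taken to vary like the other group. In the 5 ALDHbr libraries, where only ALDHbr 5 was hemoglobin-low, 0 of 13406 genes passed (0%) and 192 had an unadjusted p under 0.05 (1.43%). The words rose and fell below are used only of genes that passed in the ALDHdim test, and no such gene passed over all 10 libraries with edgeR.

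ALDHbr and ALDHdim libraries share no sample, so genes called in the latter could be looked up in the former. Of the 440 called genes measured in both, 375 (85.2%) differed in the same direction in ALDHbr libraries, against 6640 of 11339 genes overall (58.6%). Among genes that rose the figure was 212 of 236 (89.8%), with a median ALDHbr difference of 0.45, against 63.9% and 0.13 over all genes with higher ALDHdim estimates. Among genes that fell it was 163 of 204 (79.9%), with a median of −0.27, against 53.1% and −0.028 over all genes with lower ones. Only 20 of the 375 had an unadjusted p under 0.05 in ALDHbr libraries. Whether the class difference itself differed between transfer groups was tested by an interaction term, and 1 of 11538 genes passed (0.00867%), with 408 at an unadjusted p under 0.05 (3.54%).

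**Figure D2:**
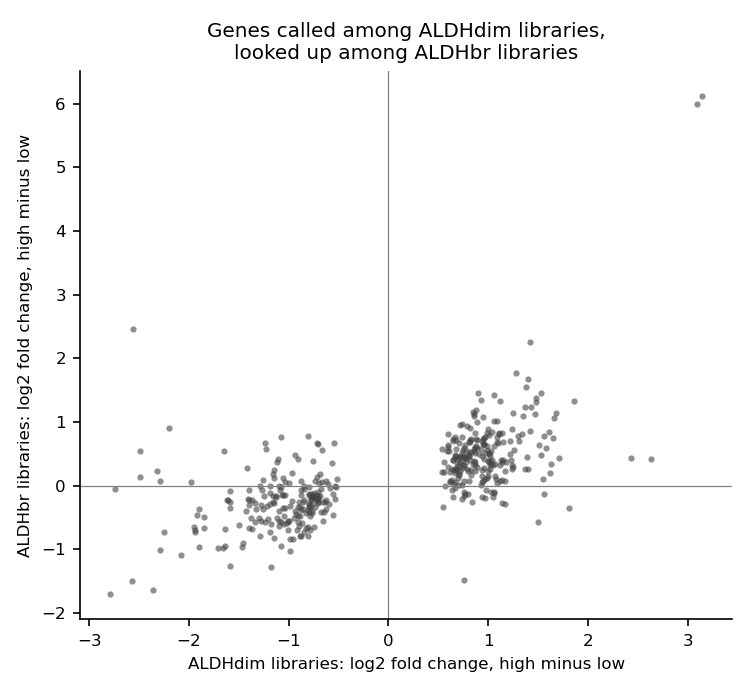
Each point is 1 of the 440 genes called by hemoglobin class among ALDHdim libraries (3 hemoglobin-high, 2 hemoglobin-low) and also measured among ALDHbr libraries (4 and 1); x axis, log2 fold change in ALDHdim libraries, y axis, log2 fold change in ALDHbr libraries. Of the points, 375 lie in the quadrants where both differences have the same sign; no point lies near 0 on the x axis because the genes were called there.

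Red cell genes outside the rule were few and mostly at low levels. Alas2, which makes the first committed step of heme synthesis in red cell precursors, was at 0.845 to 1.68 CPM in hemoglobin-low and 0 to 6.32 CPM in hemoglobin-high libraries, and it and Slc4a1, the anion exchanger of the red cell membrane (0.840 to 1.69 and 0 to 4.06 CPM), were too low to test. Summed over 5 red cell markers outside the rule (Alas2, Slc4a1, Bpgm, Fech and Slc25a37), levels were 104 to 131 CPM in hemoglobin-low and 135 to 166 CPM in hemoglobin-high libraries, without overlap. Most of that sum came from Bpgm, Fech and Slc25a37. Alas2 and Slc4a1 overlapped between classes, and both were at 0 CPM in ALDHbr 2, a hemoglobin-high library. Whether lung cells other than red cells contributed to the sum was not tested.

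Fech (ferrochelatase, which inserts iron into heme) was at 49.5, 38.0 and 48.4 CPM in the hemoglobin-low libraries and at 55.3, 61.3 and 69.3 CPM (lowest, median, highest) in the hemoglobin-high ones, a difference of 0.43 (SE 0.15, adjusted p = 0.27). Pink1, a kinase of mitochondrial quality control, was at 131, 112 and 119 CPM against 150 to 273 CPM (median 184), a difference of 0.64 (SE 0.17, adjusted p = 0.156). The levels of both genes did not overlap between classes, and Pink1 rose among ALDHdim libraries (0.68, adjusted p = 0.0164). Bpgm, which makes the 2,3-bisphosphoglycerate that tunes oxygen release, differed by 0.23 (SE 0.15, adjusted p = 0.615) and Slc25a37, the mitochondrial iron importer mitoferrin, by 0.27 (SE 0.22, adjusted p = 0.717), with overlap.

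Of the 15 tested genes for red cell enzymes, chaperones and maturation, 11 had higher estimates (median 0.22, or 0.13 without ALDHbr 5, against −0.0024 over all genes tested). Of these, 3 rose among ALDHdim libraries and 0 fell, and those that rose included Pink1 and Tent5c, a poly(A) polymerase of late erythroblasts. The membrane and cytoskeleton list had 8 tested genes, 7 of them with higher estimates (median 0.27). Epb41, the protein 4.1 that ties the red cell skeleton to its membrane (0.56, SE 0.18), and the water channel Aqp1 (0.43, SE 0.18) rose among ALDHdim libraries. Aqp1 also belongs to capillary endothelium. The exception on this list was Slc2a1, whose estimate was lower (−0.62, adjusted p = 0.335). The 17 tested genes of heme synthesis and erythroid iron handling had a median of 0.04 (−0.04 to 0.07 without single libraries, lowest without ALDHdim 5), with 10 higher and 7 lower estimates and 0 calls.

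Summed markers of other blood cells overlapped between classes or were lower in hemoglobin-high libraries. Summed over Ppbp, Pf4, Itga2b and Gp9, platelet transcripts were at 64.7 to 86.7 CPM in hemoglobin-low and 56.8 to 101 CPM in hemoglobin-high libraries. Ppbp, the platelet basic protein, was at 20.2, 25.4 and 23.9 CPM against 10.3 to 47.7 CPM (median 21.8). The 10 tested genes of platelets and megakaryocytes had a median of −0.15, which turned to 0.18 without ALDHbr 5, 0.057 without ALDHdim 4 and 0.030 without ALDHdim 5. Plek (pleckstrin, found in platelets and other leukocytes) fell among ALDHdim libraries. Thbs1 (thrombospondin 1, stored in platelets and made by injured tissue) was at 280, 288 and 198 CPM against 37.6 to 163 CPM (median 106), without overlap (−1.35, SE 0.31, adjusted p = 0.149).

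Neutrophil markers (S100a8, S100a9, Retnlg and Csf3r) summed to 166 to 267 CPM in hemoglobin-low and 86.8 to 904 CPM in hemoglobin-high libraries, with ALDHdim 2 the highest. B cell markers (82.8 to 93.4 against 54.1 to 117 CPM), T cell markers (37.2 to 58.4 against 28.0 to 56.1 CPM) and NK cell markers (33.9 to 38.0 against 26.7 to 87.0 CPM) overlapped. The T cell list had 14 lower and 2 higher estimates of 16 (median −0.47), and the B cell list 14 lower and 4 higher of 18 (median −0.20, or −0.099 without ALDHbr 1). Among ALDHdim libraries the medians were −0.53 for T cells and −0.31 for B cells, but among ALDHbr libraries −0.031 and −0.010. Bcl11b of T cells fell among ALDHdim libraries, as did Ighm and Ly6d of B cells. G0s2 of the neutrophil list rose there. Summed red cell markers separated the classes upwards, but of their genes only Fech did so by itself. Markers of platelets, neutrophils and lymphocytes overlapped, and those of classical monocytes separated downwards, as given below. The classes are therefore named here by hemoglobin rather than by blood content.

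Classical monocyte markers (Ly6c2 and Ccr2) summed to 188 to 225 CPM in hemoglobin-low and 98.6 to 163 CPM in hemoglobin-high libraries, without overlap. Ccr2, the chemokine receptor that brings classical monocytes out of the marrow, was at 162, 155 and 173 CPM in ALDHbr 5, ALDHdim 4 and ALDHdim 5 and at 59.8, 104 and 129 CPM (lowest, median, highest) in hemoglobin-high libraries. The classes did not overlap, the difference was −0.76 (SE 0.21, adjusted p = 0.177), and Ccr2 fell among ALDHdim libraries (−0.83, adjusted p = 0.0373). Of 13 tested genes of classical monocytes, 11 had lower estimates (median −0.45). Cx3cr1, a chemokine receptor of patrolling monocytes and of tissue macrophages, was at 47.9, 53.2 and 38.4 CPM against 13.8 to 37.9 CPM (median 18.3), a difference of −1.01 (SE 0.23, adjusted p = 0.137), and also fell among ALDHdim libraries.

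Genes shared by most endothelium had higher estimates in hemoglobin-high libraries, while subtypes varied. All 22 tested genes of the pan-endothelial list were higher, with a median of 0.64, and 13 of them rose and 0 fell among ALDHdim libraries (median 0.87, and 0.48 among ALDHbr libraries). In such whole-tissue samples, fewer cells of a type and less RNA per cell cannot be told apart. DESeq2 called 5 of these genes and limma-voom 4, all higher. The list score, the mean centred log2 level of its genes, ran from −0.52 to −0.28 in hemoglobin-low and from −0.50 to 0.64 in hemoglobin-high libraries. ALDHbr 3, at 1.29% hemoglobin, was the hemoglobin-high library with a score as low as the hemoglobin-low ones. The median was 0.73 without it and 0.78 without both ALDHbr 3 and ALDHbr 5, but 0.28 with the limit at 0.8% and 0.20 with the limit at the median share.

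Tspan7, a tetraspanin abundant in lung endothelium, was at 338, 266 and 276 CPM in the hemoglobin-low libraries and from 400 through 577 to 905 CPM in the hemoglobin-high ones, without overlap (1.09, SE 0.24, adjusted p = 0.137). Ramp2, a partner of the adrenomedullin receptor, was at 286, 238 and 257 CPM against 289 to 677 CPM (median 452), again without overlap (0.94, SE 0.24, adjusted p = 0.149). Both rose among ALDHdim libraries, Tspan7 by 1.34 and Ramp2 by 1.04. Pecam1, an adhesion molecule of all endothelium, rose there by 0.74 (adjusted p = 0.0105), while over all libraries its levels overlapped (0.51, SE 0.20, adjusted p = 0.316). Cdh5 (VE-cadherin) differed by 0.62 (SE 0.33) and Vwf (von Willebrand factor) by 0.25 (SE 0.34), with adjusted p of 0.532 and 0.871.

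Genes of the alveolar capillaries were prominent. Car4, a carbonic anhydrase that marks aerocytes, the capillary cells of gas exchange, was at 90.7, 60.0 and 73.4 CPM in ALDHbr 5, ALDHdim 4 and ALDHdim 5. In hemoglobin-high libraries it was at 204, 208, 105 and 90.0 CPM in ALDHbr 1 to 4 and at 159, 202 and 130 CPM in ALDHdim 1 to 3. Only ALDHbr 4 overlapped with the hemoglobin-low class. The difference was 1.07 (SE 0.26, adjusted p = 0.149), and Car4 rose among ALDHdim libraries (1.30, adjusted p = 0.000766). Of 13 tested aerocyte genes, 12 had higher estimates (median 0.51), and Apln, Car4, Kitl and Prx rose among ALDHdim libraries.

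General capillary cells, the progenitors of the capillary bed, had 10 higher and 3 lower estimates of 13 (median 0.52). Tmem100, a membrane protein induced by BMP signals in endothelium, was at 308, 200 and 192 CPM against 296 to 788 CPM (median 534), a difference of 1.24 (SE 0.26, adjusted p = 0.137) and of 1.65 among ALDHdim libraries (adjusted p = 0.000127). Hpgd, which breaks down prostaglandins, rose there by 1.51 (adjusted p = 0.000107) and differed by 1.10 over all libraries (SE 0.25). Adgrl4, Cd93, Gpihbp1, Plvap and Sema3c also rose among ALDHdim libraries, but Sema3c differed by −0.17 among ALDHbr libraries. Smad6, an inhibitor of BMP signalling, had the smallest p of all genes among ALDHdim libraries (1.62, adjusted p = 9.12e-05), but its levels overlapped over all libraries because ALDHbr 3 and ALDHbr 4 were at 65.4 and 92.4 CPM, near the 61.7 to 93.2 CPM of the hemoglobin-low libraries.

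A pair of genes on the same list had lower levels. Lpl (lipoprotein lipase, made by capillary endothelium and alveolar macrophages) was at 391, 596 and 620 CPM in the hemoglobin-low libraries and from 228 to 374 CPM (median 293) in the others, without overlap (−0.85, SE 0.17, adjusted p = 0.114). Cxcl12, the chemokine that holds marrow cells in their niche and is also made by fibroblasts, was at 290, 336 and 336 CPM against 154 to 300 CPM (median 179). Both fell among ALDHdim libraries, Lpl with a difference of −1.05 and Cxcl12 with −0.89.

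Lists of large-vessel and lymphatic endothelium had medians nearer 0. Dll4, a Notch ligand of arteries and sprouting tips, was at 22.7, 21.1 and 18.9 CPM against 24.5 to 57.3 CPM (median 53.4), without overlap (1.15, SE 0.27, adjusted p = 0.139), and rose among ALDHdim libraries with Efnb2, Hey1 and Stmn2. The arterial list as a whole had 7 higher and 6 lower estimates of 13 (median 0.24, or 0.094 without ALDHdim 4), and the venous list 8 and 3 of 11 (median 0.25, or 0.15 without ALDHdim 4). Of 11 lymphatic genes, 9 had lower estimates (median −0.28), among them Prox1, the factor that sets lymphatic identity, at 10.6 to 12.7 CPM against 1.91 to 10.3 CPM. Lyve1, which general capillaries of the lung also express, rose among ALDHdim libraries (0.81, adjusted p = 0.0102) and differed by 0.63 over all libraries (SE 0.22). Mrc1, which is also on the alveolar macrophage list, fell among ALDHdim libraries.

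**Figure D3:**
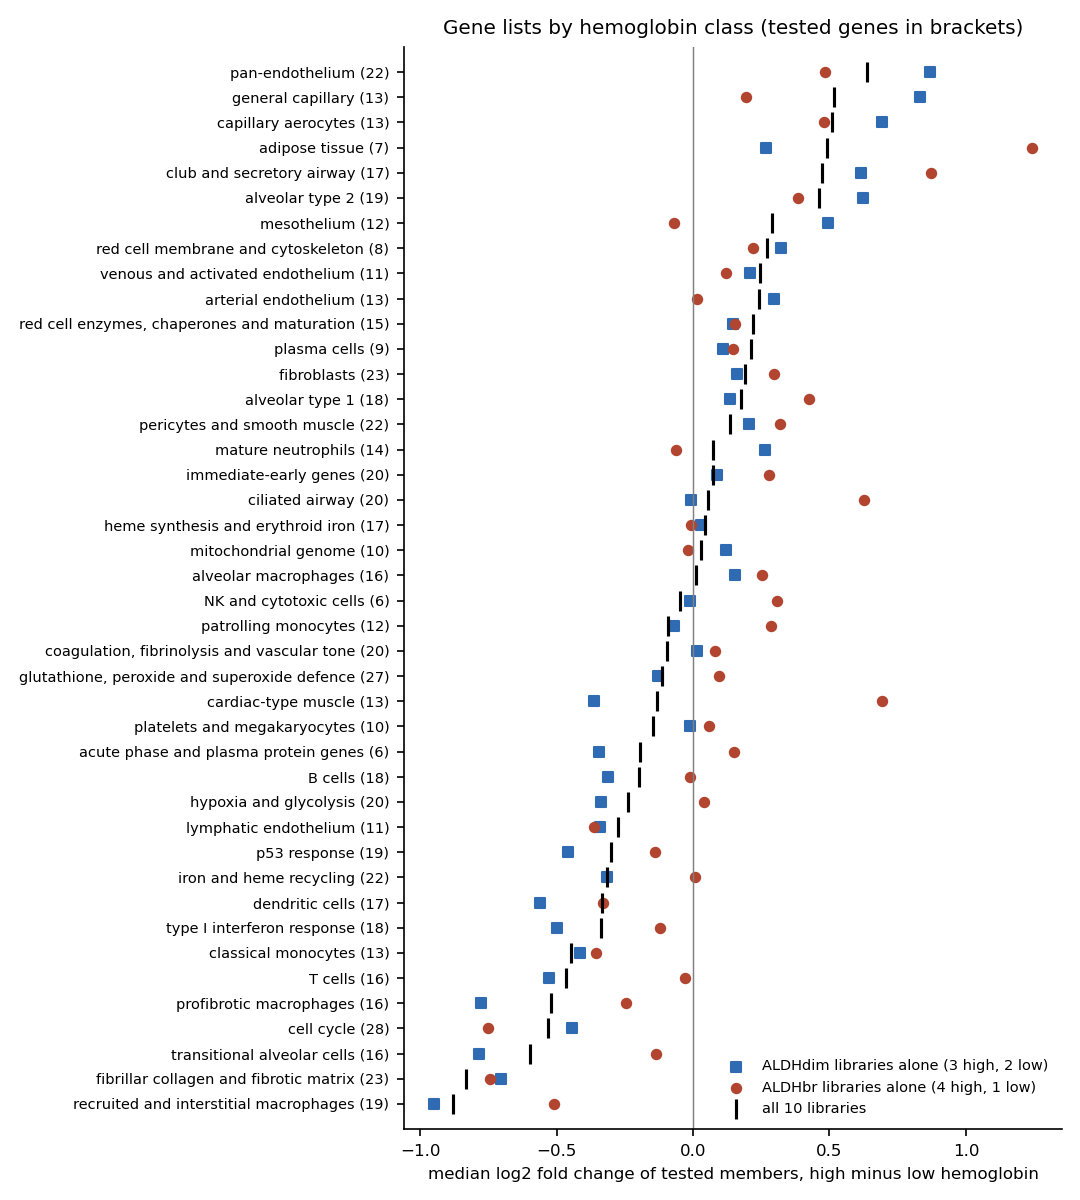
Median log2 fold change (x axis, hemoglobin-high minus hemoglobin-low) of each gene list with at least 5 tested members (y axis, number tested in brackets) over all 10 libraries (black bars), ALDHdim libraries (blue squares) and ALDHbr libraries (red circles). Pan-endothelial, both capillary and alveolar type 2 lists lie to the right of 0 in all 3 sets, the lymphatic list lies to the left, and recruited macrophages (−0.88) and fibrotic matrix (−0.83) furthest to the left over all libraries.

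The alveolar epithelium split by cell state. Of 19 genes of alveolar type 2 cells, which make surfactant, 17 had higher estimates (median 0.46), and 8 rose and 0 fell among ALDHdim libraries. The list score was −0.37 to −0.24 in hemoglobin-low and −0.20 to 0.30 in hemoglobin-high libraries, without overlap. Chil1, a chitinase-like protein that this list shares with those of profibrotic macrophages and neutrophil precursors, was at 661, 510 and 494 CPM against 825 to 1104 CPM (median 968), without overlap (0.80, SE 0.16, adjusted p = 0.114). Sftpa1, a surfactant collectin, was at 3825, 3692 and 2830 CPM against 3586 to 8157 CPM (median 5714), a difference of 0.81 (SE 0.23, adjusted p = 0.181). Sftpc, surfactant protein C, was at 18189, 14658 and 14778 CPM against 16200 to 36224 CPM (median 24340), a difference of 0.63 (SE 0.24, adjusted p = 0.311). Sftpa1 and Sftpc rose among ALDHdim libraries, with Fasn, Hc, Lamp3, Lyz1 and Slc34a2.

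Transitional alveolar cells, a keratin-rich state that type 2 cells pass through on the way to type 1 after injury, showed the opposite. All 16 tested genes of this list had lower estimates (median −0.60, and −0.78 and −0.14 among ALDHdim and ALDHbr libraries), and 9 fell and 0 rose among ALDHdim libraries. Sfn (14-3-3 sigma) was at 39.5, 66.8 and 86.2 CPM against 9.89 to 41.1 CPM (median 24.4), a difference of −1.53 (SE 0.33, adjusted p = 0.137). Krt18, a keratin of simple epithelium, was at 149, 244 and 224 CPM against 115 to 171 CPM (median 123), and Cldn4, a tight junction protein, at 10.1, 32.1 and 29.5 CPM against 2.54 to 19.7 CPM (median 7.63). In all 3 genes ALDHbr 5 lay below both hemoglobin-low ALDHdim libraries and inside the range of the hemoglobin-high class.

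Type 1 cells, the thin lining of the alveolus, had 13 higher and 5 lower estimates of 18 (median 0.18, from 0.068 without ALDHbr 5 to 0.28 without ALDHdim 4). Cav1, the main protein of caveolae in type 1 and endothelial cells, was at 843, 780 and 697 CPM against 892 to 1550 CPM (median 1172), without overlap, and rose among ALDHdim libraries (0.81, adjusted p = 0.00845). Ager, the receptor that marks type 1 cells, overlapped (0.27, SE 0.17, adjusted p = 0.617). In the airway, the club cell list had 14 higher estimates of 17 (median 0.47). Scgb1a1, its secretoglobin, was at 15563, 16375 and 13632 CPM against 15306 to 45002 CPM (median 25862), and rose among ALDHdim libraries (0.97, adjusted p = 0.00522) with Cbr2 and Cyp2f2, while Gsto1 fell. Ciliated cell genes had a median of 0.06, from −0.071 without ALDHbr 5 to 0.29 without ALDHdim 4.

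Macrophage and matrix genes were mostly at higher levels in the hemoglobin-low libraries. All 19 tested genes of recruited and interstitial macrophages had lower estimates with hemoglobin (median −0.88). The list score was 0.51 to 0.67 in hemoglobin-low and −1.12 to 0.39 in hemoglobin-high libraries, without overlap, with ALDHbr 4 the highest of the latter. Adgre1, which encodes the macrophage antigen F4/80, was at 57.1, 62.5 and 48.4 CPM against 15.8 to 40.1 CPM (median 32.7), without overlap (−0.93, SE 0.22, adjusted p = 0.139). Among ALDHdim libraries 4 of the list fell and 0 rose, and those that fell included Apoe, Cx3cr1 and Fcrls. Of 16 genes of profibrotic macrophages, 13 had lower estimates (median −0.52), and Arg1, Cd63, Lgals3 and Mmp14 fell among ALDHdim libraries while Chil1 rose. Alveolar macrophages, the resident type, had a median of 0.01, from −0.0066 without ALDHbr 3 to 0.23 without ALDHdim 4.

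Fibrotic matrix genes, among them the fibrillar collagens, had 22 lower and 1 higher estimates of 23 (median −0.83, and −0.70 and −0.74 among ALDHdim and ALDHbr libraries). Its score was 0.50 to 0.80 in hemoglobin-low and −1.30 to 0.39 in hemoglobin-high libraries, without overlap. Fn1 (fibronectin) was at 495, 799 and 820 CPM in ALDHbr 5, ALDHdim 4 and ALDHdim 5. Hemoglobin-high libraries had 455, 65.3, 178 and 426 CPM in ALDHbr 1 to 4 and 371, 131 and 214 CPM in ALDHdim 1 to 3, so the classes were adjacent and the hemoglobin-high class spread widely (−1.40, SE 0.49, adjusted p = 0.318). Lox, which crosslinks collagen, was at 118, 107 and 148 CPM against 34.5 to 97.1 CPM (median 57.1), without overlap (−1.02, SE 0.27, adjusted p = 0.181). Col1a1, a chain of type I collagen, was at 491, 818 and 898 CPM against 103 to 572 CPM (median 410), with overlap (−1.03, SE 0.54, adjusted p = 0.532). Cthrc1, a marker of matrix-making fibroblasts, was the 1 gene of the list that fell among ALDHdim libraries (−1.46, adjusted p = 0.0182), and it differed by −1.17 over all libraries (SE 0.31).

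Of 23 general fibroblast genes, 17 had higher estimates (median 0.19, or 0.11 without ALDHbr 5). Tcf21, a transcription factor of lipid-storing alveolar fibroblasts, was at 72.2, 68.5 and 52.8 CPM against 86.1 to 175 CPM (median 119), without overlap, and rose among ALDHdim libraries (1.11, adjusted p = 0.0147). Acta2, the smooth muscle actin of muscle and myofibroblasts, differed by 0.22 (SE 0.19, adjusted p = 0.742).

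**Figure D4:**
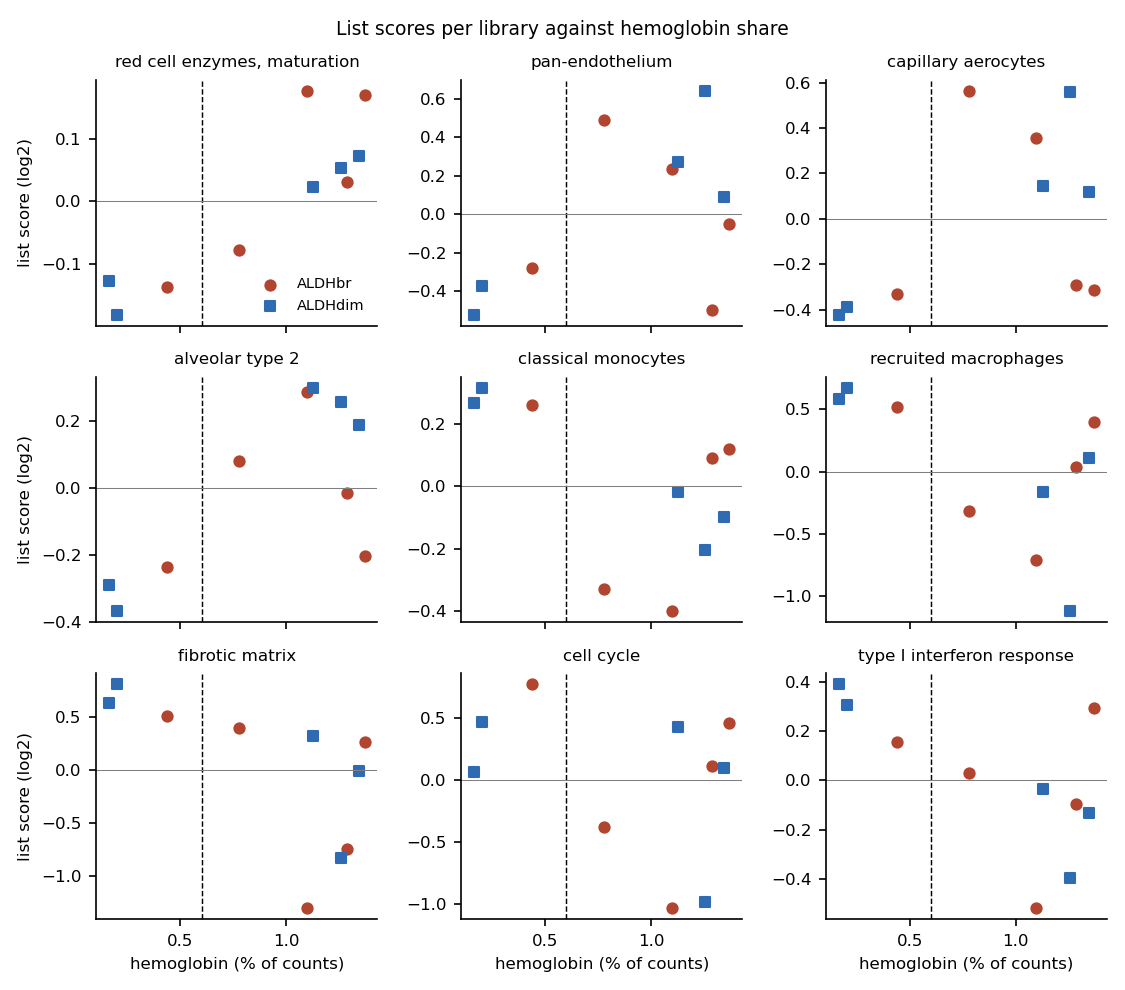
List score of each library (y axis, mean centred log2 CPM of the tested genes) against its hemoglobin share (x axis, percent of counts) for 9 gene lists; circles are ALDHbr and squares ALDHdim libraries, and the dashed line is the 0.6% limit. The red cell, aerocyte and alveolar type 2 panels separate at the line upwards, the monocyte, recruited macrophage and matrix panels downwards, and the pan-endothelial, cell cycle and interferon panels overlap.

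Genes that handle the iron and heme of worn-out red cells were not higher where hemoglobin was higher. Of 22 tested, 18 had lower estimates (median −0.31, or −0.20 without ALDHdim 4). The median was −0.31 among ALDHdim libraries but 0.0067 among ALDHbr libraries. The list score was 0.08 to 0.28 in hemoglobin-low and −0.18 to −0.02 in hemoglobin-high libraries, without overlap. Slc39a14, a zinc and iron importer that inflammation induces, was at 29.4, 36.3 and 32.8 CPM against 7.61 to 21.3 CPM (median 15.4), a difference of −1.08 (SE 0.25, adjusted p = 0.137). It and Slc11a1, the phagosome iron exporter of macrophages, fell among ALDHdim libraries. Hmox1, which opens the heme ring, overlapped between classes (−0.33, SE 0.20, adjusted p = 0.593). Many of these genes are also expressed by macrophages, whose own list is described above.

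Proliferation and interferon genes also had lower estimates in hemoglobin-high libraries. Mki67, expressed by dividing cells, was at 58.8, 33.0 and 41.1 CPM against 5.94 to 28.4 CPM (median 23.0), without overlap (−1.14, SE 0.34, adjusted p = 0.216). Of 28 cell cycle genes, 27 had lower estimates (median −0.53) and 0 passed among ALDHdim libraries. Isg15, a ubiquitin-like protein induced by type I interferon, was at 78.1, 67.6 and 68.4 CPM against 19.8 to 59.2 CPM (median 36.9), without overlap (−0.94, SE 0.22, adjusted p = 0.139). All 18 interferon-response genes had lower estimates (median −0.34, and −0.50 and −0.12 among ALDHdim and ALDHbr libraries). Of these, Ifit1, Ifit3, Isg15, Lgals3bp and Zbp1 fell among ALDHdim libraries.

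Stress responses were mixed. Among 27 genes of glutathione, peroxide and superoxide defence, 17 had lower estimates (median −0.11, or −0.021 without ALDHbr 1), and Gclc, Slc7a11, Srxn1 and Txnrd1, all targets of the oxidant sensor NRF2, fell among ALDHdim libraries. The median of this list was −0.13 among ALDHdim and 0.095 among ALDHbr libraries. Srxn1 (sulfiredoxin, which repairs peroxiredoxins) was at 48.7, 64.2 and 73.9 CPM against 24.3 to 42.3 CPM (median 35.0), without overlap (−0.96, SE 0.20, adjusted p = 0.114). Of 20 immediate-early genes, which respond within minutes to handling or stimulus, 14 had higher estimates (median 0.07, from 0.010 without ALDHdim 1 to 0.22 without ALDHdim 4), and Dusp1, Jun, Klf4 and Nr4a1 rose among ALDHdim libraries while Socs3 fell. The hypoxia and glycolysis list had 16 lower estimates of 20 (median −0.24), with Vegfa rising and Ankrd37, Eno1, Ndrg1 and Pkm falling among ALDHdim libraries. Its median was −0.34 among ALDHdim and 0.040 among ALDHbr libraries.

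**Figure D5:**
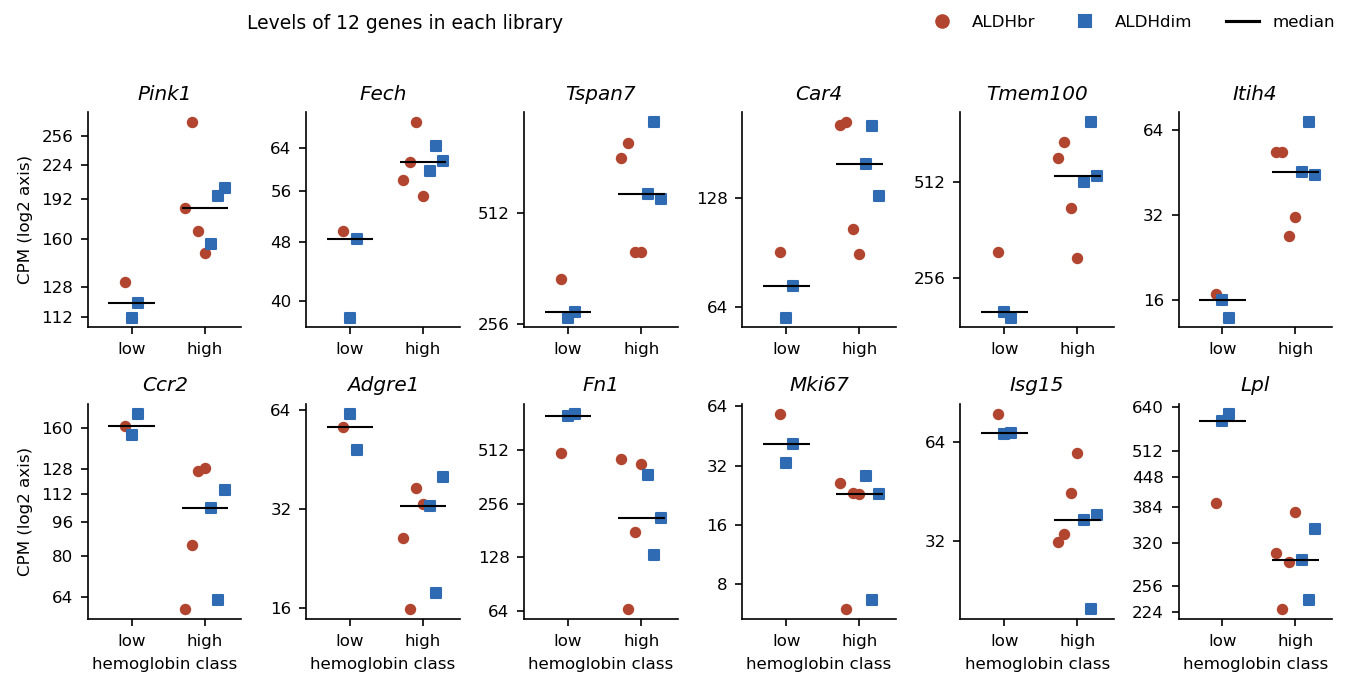
CPM (y axes, log2 scale, each gene on its own range) of 12 genes in each library, by hemoglobin class; circles are ALDHbr and squares ALDHdim libraries, and lines are class medians. Pink1, Fech, Tspan7 and Itih4 separate upwards; Ccr2, Adgre1, Fn1, Mki67, Isg15 and Lpl separate downwards; Car4 and Tmem100 overlap through ALDHbr libraries.

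The gene of smallest p over all 10 libraries was Itih4, an inter-alpha-trypsin inhibitor chain best known as a liver-made plasma protein. It was at 16.8, 16.1 and 13.9 CPM in ALDHbr 5, ALDHdim 4 and ALDHdim 5 and at 26.9, 45.4 and 68.5 CPM (lowest, median, highest) in hemoglobin-high libraries. The difference was 1.60 (SE 0.27, adjusted p = 0.114; 7.94e-05 with DESeq2 and 0.00938 with limma-voom). Pcolce2, an enhancer of procollagen processing (1.21, SE 0.23), and Gpt, an alanine aminotransferase (1.45, SE 0.29), likewise did not overlap, and all 3 rose among ALDHdim libraries. In the other direction, Fst (follistatin, which binds activins) was at 28.5, 36.3 and 48.9 CPM against 10.1 to 26.1 CPM (median 11.9; −1.36, SE 0.26). Cxcl13, the chemokine of B cell follicles (−1.63, SE 0.33), and Ccl7, a monocyte attractant (−1.96, SE 0.42), also did not overlap. Ccl7 was at 10.99 to 13.3 CPM in hemoglobin-low and 1.01 to 6.32 CPM in hemoglobin-high libraries. It passed the count filter only through the hemoglobin-low libraries, so its separation is given as a description. Cxcl13, Ccl7 and Fst fell among ALDHdim libraries.

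The comparison the study was built for was refitted with hemoglobin taken into account. Without it, 0 of 10844 genes passed between ALDHbr and ALDHdim recipients by edgeR (0%), with 402 at an unadjusted p under 0.05 (3.71%). With the hemoglobin class as a term 0 passed, 454 had an unadjusted p under 0.05 and the smallest adjusted p was 0.952. With log2 hemoglobin percent as a term 0 passed, 386 had an unadjusted p under 0.05 and the smallest adjusted p was 0.993. In the reverse direction, 0 genes passed between hemoglobin classes with the transfer group as a term, where the smallest adjusted p was 0.101.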

How the data were processed

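Raw gene counts were deposited by the authors for 33347 mouse genes in 10 lung libraries made by BRB-seq, a 3' method with sample barcodes, per the labels' protocols. Tools named in the submitters' processing notes are HISAT2 2.2.1, featureCounts 2.0.1, UMI-tools, DESeq2 and Trim Galore 0.6.7, with no order or role, and the builds are GRCh38 and GRCm38. The sources used here do not say how UMIs and strand were handled. The deposited barcode sheet places the 10 lung samples and 6 samples named as cells in 1 pool, and the cells were not analysed here.

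The 5 Hba- and Hbb- genes were removed before scaling. Genes were kept by filterByExpr (minimum count 10, by class), which left 11538 genes with 97.8% of the remaining counts, and TMM scaling was used. The main test was the robust quasi-likelihood test of edgeR 4.0.16 (R 4.3.3), adjusted by Benjamini-Hochberg over all genes tested, with a threshold of 0.05. DESeq2 1.42.0 and limma 3.58.1 (voom) served as alternatives. List scores average centred log2 CPM (prior count 2). Gene identifiers were all found in GENCODE M21 (GRCm38), and promoter sequences are RefSeq's on GRCm38.p6. Library features were compared by exact permutation. On simulated data for the comparison of 7 with 3 libraries (11538 genes, 5 simulations), 17.2% of genes changed 1.5-fold, 62% of those changed 2-fold, 87.2% of those changed 3-fold and 86.4% of those changed 4-fold were recovered, and 4.39% of calls were false. The simulated counts were drawn gene by gene at the fitted dispersions. They held no shifts shared between genes and no library standing apart, so these rates need not hold for the real libraries. In the real comparison the median 95% interval reached 0.46 (log2) to either side.

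The members, gene lists and tests were chosen with earlier results of these data known. Named are the 10 genes of smallest p in each direction, without predicted names, over all libraries and again among ALDHdim libraries; tested red cell genes; up to 4 genes of smallest p in each list described; list members called among ALDHdim libraries and those of smallest p there; the cell markers; and a set of lung and blood genes. No libraries were copies of one another (lowest chi-square per degree of freedom 2.21). Alternatives were other scaling, filters, tools, covariates, hemoglobin limits and libraries left out. Plots were drawn with matplotlib 3.10.9. Results for some genes that this rule names are not reported here.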

Additional observations from a re-analysis of the deposited data

Results flagged for a closer look

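In 12 of 85 sets of values over the 7 hemoglobin-high libraries, 1 library lay apart from the rest by Dixon's criterion. That criterion picks about 1 in 20 independent sets of normally distributed values. All sets here came from the same 7 libraries and CPM need not be normally distributed, so the 12 cannot be set against that rate. ALDHbr 4 was the highest for Cxcl13 (30.8 CPM, the others 5.58 to 15.4), Fxyd5 (171 CPM, the others 101 to 122), Cd3e (13.4 CPM, the others 3.96 to 7.81), Hmox1 (79.7 CPM, the others 35.6 to 51.2) and the T cell list score (0.46, the others −0.31 to −0.06). ALDHdim 2 was the highest for S100a8 (302 CPM, the others 33.9 to 78.1) and the mature neutrophil score (0.94, the others −0.44 to 0.09). ALDHbr 2 was the highest for Gpt (55.4 CPM, the others 18.2 to 33.5) and for the glutathione, peroxide and superoxide defence score (0.32, the others −0.19 to −0.04). ALDHbr 3 was the lowest for the patrolling monocyte score (−0.31, the others −0.06 to 0.11) and for the score of venous and activated endothelium (−0.46, the others −0.02 to 0.27), and it detected the most genes at equal depth (22812, the others 16528 to 18063).

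By the interaction test, the class difference differed between transfer groups for 1 gene, the predicted gene Gm28439, which was named because it was the only one. Its interaction estimate was −2.26 (adjusted p = 0.0496), with a difference of 0.76 among ALDHdim and −1.48 among ALDHbr libraries. Its level was 248 CPM in ALDHbr 5, the single hemoglobin-low ALDHbr library, while ALDHbr 1 to 4 had 75.1 to 119 CPM. The call was lost with either other scaling.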

How the results depend on the processing

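Over all 10 libraries edgeR called 0 genes with TMM, DESeq2 size factors or upper-quartile scaling, a mean count of at least 10, the transfer group as a term, log2 hemoglobin percent in place of classes, other hemoglobin limits (0.8% or the median; a limit of 0.5% gives the same classes) and adjusted p thresholds of 0.01 or 0.1. Calls appeared with no filter on low counts (297), DESeq2 (145), limma-voom (192), ALDHdim libraries alone (441) and ALDHbr 3 and 5 omitted (11), and ranged from 0 to 174 when single libraries were left out; the cause was not tested. The ALDHdim count became 686 without a filter, 210 with DESeq2 and 586 with limma-voom, and 0 to 561 without single libraries. The interaction count was 0 with DESeq2 size factors, 0 with upper-quartile scaling and 3 without a filter. The alternatives for ALDHdim libraries, the interaction and the library features were chosen after seeing the data. Without single libraries the permutation p ranged from 0.31 to 0.905 for total counts, 0.333 to 1 for genes detected, 0.5 to 0.988 for immunoglobulin and 0.0238 to 0.111 for mitochondrial share. Estimates that changed sign were those of S100a8 (−0.17 with limma-voom, −0.46 in ALDHbr libraries alone, −0.51 to 0.56 without single libraries), Hmox1 (0.052 in ALDHbr libraries alone), Vwf (−0.35 and −0.25 at the 0.8% and median limits), Acta2 (−0.0622 and −0.0656) and Ager (−0.11 at the median limit).

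The labels give replicate numbers no shared origin, and they were not taken as pairs because not every same-numbered pair exceeded a correlation of 0.1: the correlations of same-numbered deviations were 0.031, 0.36, 0.20, 0.25 and 0.21, and not every library correlated best with its own number. Both libraries numbered 5 were hemoglobin-low, so a replicate block compares the classes within number 4 alone. With the replicate block 0 genes passed and 202 had an unadjusted p under 0.05. Estimates of changed sign under the block, and under the block with the transfer group, were those of Scgb1a1 (−0.097 and −0.075), Cd3e (0.81 and 1.07), Hmox1 (0.33 and 0.56), Ager (−0.12 and −0.22), Ppbp (−1.30 and −0.87) and S100a8 (−1.62 and −1.07), of Vwf with the block (−0.13), and of Ptprc (0.18) and Col1a1 (0.19) with both. Of 42 list medians, 17 changed sign with the block and another 12 shrank by more than 1.5 times. Among them were cell cycle (0.38), T cells (0.24), B cells (0.48), dendritic cells (0.33), club cells (−0.41), adipose tissue (−0.30), alveolar type 2 (0.034), aerocytes (0.074), recruited macrophages (−0.14) and profibrotic macrophages (−0.069). With the limit at 0.8% or the median, 3 and 5 list medians changed sign and another 18 and 27 shrank by more than 1.5 times. Leaving out 1 library changed the sign of 11.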

Other observations

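Lists of neighbouring tissues were looked up as values. The cardiac-type muscle list, which the muscle sleeves of mouse pulmonary veins also express, had 5 higher and 8 lower estimates of 13 (median −0.13, from −0.41 without ALDHbr 5 to 0.017 without ALDHdim 5), and opposite medians among ALDHdim (−0.36) and ALDHbr libraries (0.69). The mesothelial list had 8 higher estimates of 12 (median 0.29, from 0.052 without ALDHdim 5 to 0.67 without ALDHbr 5), and Upk1b and Gpm6a of the lung surface rose among ALDHdim libraries. The adipose list had 6 higher estimates of 7 (median 0.49, from 0.28 without ALDHbr 5 to 0.84 without ALDHdim 5), the exception being Lpl.

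The acute phase gene Saa3, a serum amyloid A of inflamed epithelium and macrophages, spanned 3.55 to 135 CPM. It was at 53.7, 96.3 and 135 CPM in ALDHbr 5, ALDHdim 4 and ALDHdim 5, and ALDHbr 4, with the highest hemoglobin share, reached 100 CPM, whereas the rest of the hemoglobin-high class had 3.55 to 22.7 CPM (−1.88, SE 0.76, adjusted p = 0.403). Serpina3n, a protease inhibitor of the acute phase, fell among ALDHdim libraries (−1.58, adjusted p = 0.00118) and differed by −1.05 over all libraries (SE 0.40). Mt1 (metallothionein 1, which binds zinc) fell among ALDHdim libraries (−1.42, adjusted p = 0.000127) and differed by 0.27 among ALDHbr libraries and by −0.84 over all libraries (SE 0.28).

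Gnmt and Fabp1, both best known from liver, had the highest estimates in ALDHbr libraries among the genes that rose in ALDHdim libraries, and were chosen after their values were seen. Gnmt was at 0, 2.54 and 0 CPM in ALDHbr 5, ALDHdim 4 and ALDHdim 5 and at 3.16 to 23.7 CPM in hemoglobin-high libraries, with ALDHbr 2 the highest. Fabp1 was at 0, 0 and 1.67 CPM and at 0 to 27.7 CPM, again with ALDHbr 2 the highest. Both genes passed the count filter only through hemoglobin-high libraries. Their ALDHbr estimates rest on 0 CPM in ALDHbr 5, the single hemoglobin-low library of that group, and are given as a description.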
